A study of Caenorhabditis elegans with 4 samples.

Results

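The regions described here are the MIX-1 peaks on the right-hand part of the X chromosome of Caenorhabditis elegans. They are the peaks of the series-wide list that lie on X with a midpoint above position 11812000 (WormBase WS220), a stretch called the right X segment here, which gave 373 of the 2695 peaks on the nuclear chromosomes and 373 of the 1076 peaks on X. The choice went by position alone and used no measured value. The data are chromatin immunoprecipitation sequencing (ChIP-seq) of 2 MIX-1 ChIP libraries, with 2 input libraries for which no list was used here. All of them came from mixed-stage embryos of the wild-type strain N2 grown at 20 °C, described in the labels as a population of males and hermaphrodites, and the immunoprecipitation used the affinity-purified rabbit polyclonal antibody SDQ3892.

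MIX-1 belongs to the SMC family of ATPases and is the nematode counterpart of SMC2. It is a subunit of the condensins that compact all chromosomes in mitosis and meiosis, and also of the condensin within the dosage compensation complex, which in hermaphrodites binds both X chromosomes and reduces transcription from them. That complex is known to load at strong recruitment sites on X and to spread from them to further sites, many of them promoters. An antibody against MIX-1 does not tell these complexes apart, and in mixed embryos it reads all cell types together.

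Each list gives, for every region, a first and a last base and a score assigned by the authors' peak caller, whose scale is not stated, so scores were used only within a list or set side by side by name. The right X segment held 373 series-wide peaks, 309 of the 2305 nuclear regions of replicate 1 and 97 of the 706 regions of replicate 2. A peak is called met by a replicate list when the regions overlap by at least 1 bp. In the right X segment 15 peaks were met by more than 1 region of replicate 1, and 5 by more than 1 of replicate 2. The replicate score given for such a peak is the highest among those regions, whose widths can differ from that of the peak. Over all 2695 nuclear peaks of the series-wide list, 22.3% were met by both replicate lists, 64.2% by replicate 1, 25.6% by replicate 2 and 32.5% by neither. Read depth is unknown, so the shorter list of replicate 2 cannot be read as less binding, and the intervals given here cover the counting error of regions only. The labels do not say that the replicates came from separate cultures. No genome or gene annotation of WS220 was used here, so peaks are named by position and the features beneath them are not given.

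The strongest peaks of the right X segment were wide and stood out in all 3 lists. X:11935924-11937890 had the highest score of the stretch, 179.7, the second highest of the nuclear list, over 1967 bp. It scored 3100 in replicate 1 and 2522 in replicate 2. X:14525268-14526824, 1557 bp wide, scored 172.6 series-wide, with 3100 in replicate 1 and 2989 in replicate 2. Both therefore ranked near the top in each library, and 3100 was the value at which the scores of replicate 1 piled up.

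Further peaks of this strength lay at intervals towards the right end. X:16055901-16057049 scored 154.2, with 3100 in replicate 1 and 1592 in replicate 2. X:13699916-13701978, the widest of the 15 highest-scoring peaks at 2063 bp, scored 154.2 and was the only peak of the segment to reach 3100 in both replicates. It was met by 4 regions of replicate 1, of which the highest-scoring was 963 bp wide, and by 1 region of replicate 2, 997 bp wide. X:12362502-12363749 scored 137.5, with 3100 in replicate 1 and 1603 in replicate 2. These 5 peaks were spread from the inner limit to the outer part of the stretch. X:16680923-16682839, 1917 bp wide, followed with 109.2, again with 3100 in replicate 1 and with 1874 in replicate 2.

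The pair nearest to the right end among the 15 highest stood closer together than any other neighbours in that set. X:17543740-17544791 scored 109.7, with 1896 in replicate 1 and 711.5 in replicate 2. X:17545349-17545909, which began 557 bp beyond it, scored 82.2, with 1093 in replicate 1 and 323.5 in replicate 2. They were counted as separate peaks, and a replicate region met each of them in both libraries.

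The remaining 7 of the 15 highest-scoring peaks were narrower, at 362 to 500 bp, with series-wide scores of 49.3 to 56.0. X:13995697-13996070 scored 56.0, with 474.2 in replicate 1 and 231.7 in replicate 2. X:16209510-16210009 scored 55.6, and its replicate scores lay further apart, at 1237 in replicate 1 and 207.8 in replicate 2. X:11934847-11935208, a neighbour of the strongest peak, scored 55.1, with 575.7 in replicate 1 and 77.6 in replicate 2. No peak of this narrower set reached the replicate 1 scores of the peaks over 1 kb wide among the 15. X:13665250-13665745 scored 52.4, with 737.1 in replicate 1 and 546.3 in replicate 2. X:15736330-15736827 scored 51.8, with 640.6 in replicate 1 and 203.3 in replicate 2. X:15492658-15493029 scored 50.0, with 486.6 in replicate 1 and 301.6 in replicate 2, and had only 1 other peak within 50 kb. X:14480156-14480523 closed the set with 49.3, with 501.9 in replicate 1 and 128.2 in replicate 2, but stood among 13 other peaks within 50 kb.

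All 15 were met by both replicate lists, and 7 of them lay in the outer part of the stretch. Their median width was 561 bp (range 362 to 2063), beside 267 bp for the other 358 peaks (146 to 3692). The free distance between successive peaks of the 15 ran from 0.557 to 1302 kb with a median of 306.4 kb. Between successive peaks of the 48 that belonged to the highest-scoring 10% of the nuclear list (10.1% of its peaks, with ties) it ran from 0.557 to 394.5 kb, with a median of 79.9 kb. These widths and distances follow the choice by score and are given as a description.

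**Figure D1:**
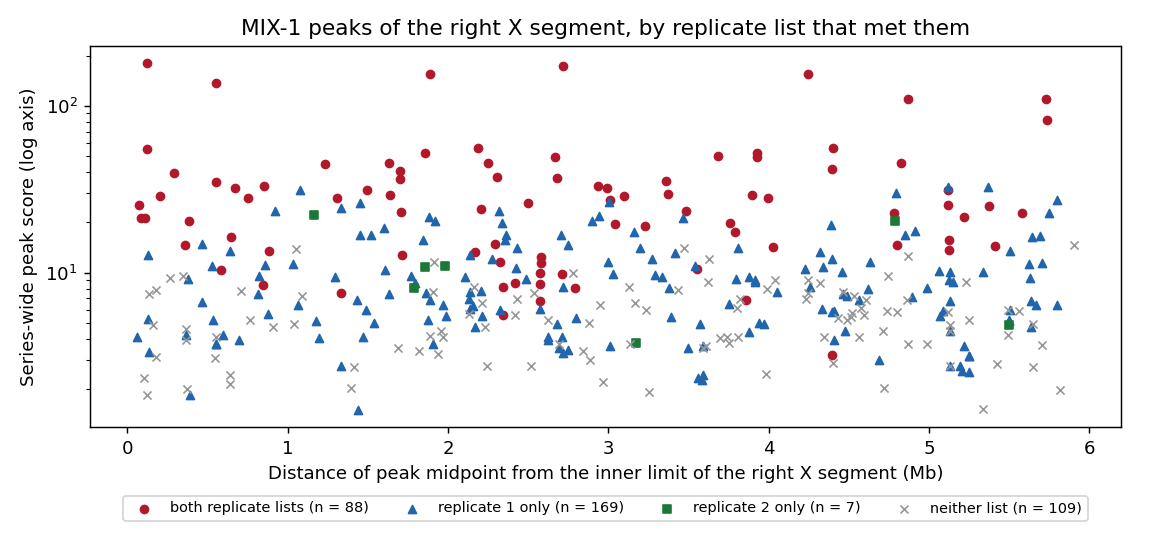
Series-wide score of each of the 373 peaks of the right X segment (log axis) against the distance of its midpoint from the inner limit of the stretch in Mb, with 1 point per peak and its colour and shape giving the replicate lists that met it. The 15 peaks at scores of 49.3 or more are all met by both lists and lie along the whole stretch, and the 109 peaks met by neither list lie at scores of 1.53 to 14.7.

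Width and series-wide score did not rank the peaks alike. X:15807479-15811170 was the widest peak of the stretch, at 3692 bp, and scored 28.2, which placed it at rank 44 of the 373. In the libraries it was among the strongest, with 3100 in replicate 1 and 1649 in replicate 2. X:11886420-11888204, at 1785 bp, likewise scored 25.3 series-wide but 3100 in replicate 1 and 704.5 in replicate 2. Both had replicate scores in the range of the leading peaks. Of the 15, X:13699916-13701978 (2063 bp), X:11935924-11937890 (1967 bp) and X:16680923-16682839 (1917 bp) were wider than X:11886420-11888204. The pair was picked as wide peaks outside the 15, so its lower series-wide scores were fixed by that choice. Among the other peaks picked in this way the replicate scores were lower. X:16931263-16933938, at 2676 bp, scored 31.4, with 790.1 in replicate 1 and 482.6 in replicate 2. X:16936840-16939002, at 2163 bp, scored 13.6, with 709.1 in replicate 1 and 99.6 in replicate 2. X:15226903-15228675, at 1773 bp, scored 13.1, with 1200 in replicate 1 and no region in replicate 2. X:14908016-14909331, at 1316 bp, a peak chosen after its values were seen, resembled the first pair, with 28.8 series-wide, 2202 in replicate 1 and 904.7 in replicate 2. Over the 373 peaks the Spearman correlation of series-wide score and width was 0.65. Over the 88 peaks met by both replicate lists it was 0.22. The same correlations were 0.59 and 0.33 in the rest of X, and 0.51 and 0.041 on chromosomes II to V. All are taken across peaks of 1 list that share its libraries.

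Peak density in the right X segment did not differ detectably from that in the rest of X. It had 63.1 series-wide peaks per Mb over 5.91 Mb (95% Poisson interval 56.9 to 69.9), against 59.5 per Mb over the other 11.8 Mb of X (55.2 to 64.1). The ratio was 1.06 (exact conditional 95% interval 0.933 to 1.20; two-sided exact binomial test, p = 0.365, adjusted over 9 tests 0.471). In the libraries the ratio was 1.13 in replicate 1 (0.981 to 1.30) and 0.990 in replicate 2 (0.768 to 1.27). An excess of up to 1.20 times in the series-wide list is therefore within these data.

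The rest of X was also taken in its central and left segments. The right segment had 63.1 peaks per Mb, against 53.0 in the central segment and 66.0 in the left segment, which are of about the same length. Its ratio to the central segment was 1.19 over series-wide peaks (1.02 to 1.39), 1.26 over replicate 1 regions (1.06 to 1.50) and 1.11 over replicate 2 regions (0.826 to 1.51). Over the 6 comparisons of this kind, which were added after the data had been seen, the ratio to the central segment passed the test in replicate 1 (exact binomial test, adjusted p = 0.0443) and not in the series-wide list (adjusted p = 0.0726) or replicate 2 (adjusted p = 0.646). The ratio to the left segment was 0.956 (0.828 to 1.11), 1.03 (0.873 to 1.21) and 0.890 (0.670 to 1.18) in the same 3 lists. These tests take the variance of bin counts as near their mean. In replicate 1, over bins of 500 kb, it was 1.60 times the mean in the right segment and 2.15 times in the rest of X. The replicate 1 intervals and p-values may therefore understate the uncertainty.

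Against chromosomes II to V the peaks were about 3 times as dense. The right X segment had 63.1 peaks per Mb, against 19.3 per Mb on these autosomes (18.2 to 20.4), a ratio of 3.28 (2.91 to 3.68; two-sided exact binomial test, adjusted p = 3.7e-71). The ratio was 3.00 in replicate 1 (2.64 to 3.40) and 3.39 in replicate 2 (2.68 to 4.27), so both libraries gave an excess. It was lowest against chromosome III in the series-wide list, at 2.42 (2.09 to 2.80), and highest against chromosome II, at 3.79 (3.22 to 4.46). Joining all calls within 10 kb of each other, an alternative added after the data had been seen, lowered the ratio to 2.45 (2.07 to 2.88). The test takes peaks as independent counts of even density, for which the variance of bin counts would be near their mean. Over bins of 500 kb the variance was 4.03 times the mean on chromosomes II to V. It was 2.10 times in the rest of X and 0.686 times in the right X segment. The interval and p-value against chromosomes II to V therefore understate the uncertainty, and those against the rest of X may do so too. Whether close neighbours are independent was not tested.

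**Figure D2:**
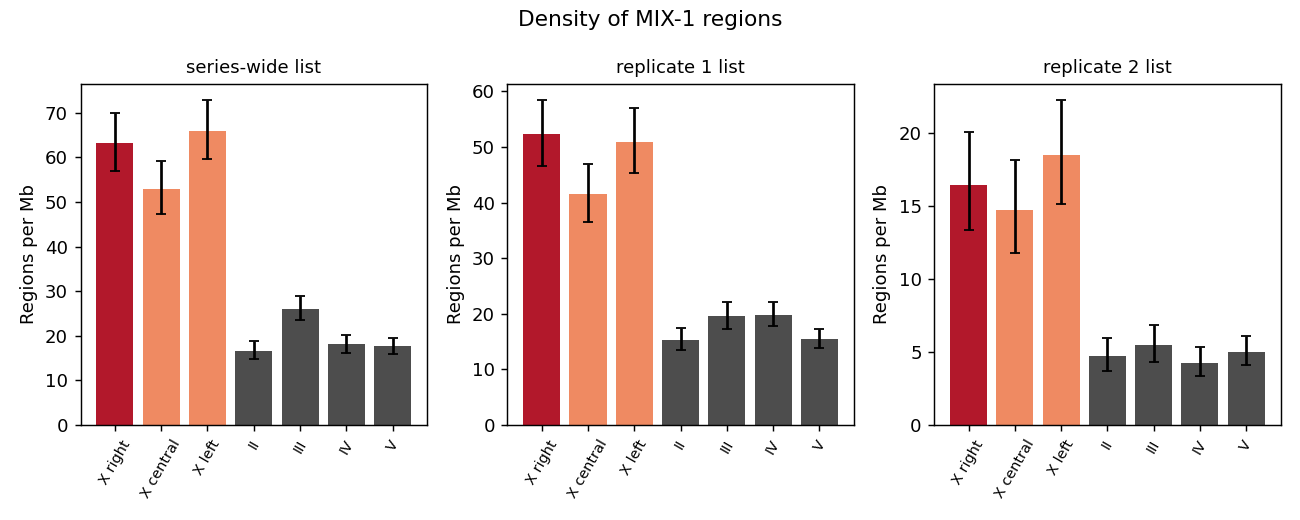
Regions per Mb in the right, central and left segments of X and on chromosomes II to V, for the series-wide list and each replicate list, with exact 95% Poisson intervals as error bars. In each list the right X segment is above all 4 autosomes, and its interval overlaps those of the other X segments.

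Peaks covered 139.1 kb, or 2.36%, of the right X segment, against 2.32% of the rest of X and 0.730% of chromosomes II to V. In replicate 1 the covered shares were 2.54%, 2.39% and 0.944% for the same stretches. In replicate 2 they were 0.854%, 1.03% and 0.386%, with mean region widths of 520.3, 619.5 and 798.4 bp. The order of the right segment and the rest of X was thus not the same in the 2 libraries, whereas both X stretches lay above the autosomes in each.

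Within the stretch no difference in density between its outer and inner parts was detectable. The outer part, next to the right end, held 187 peaks and the inner part, of the same length, 186, a ratio of 1.01 (0.816 to 1.24; exact binomial test, adjusted p = 1). Over 11 bins of 500 kb the mean count in the right X segment was 31.9 ± 4.68 (SD between bins, lowest 24, highest 38), against 29.8 ± 7.91 in 23 bins of the rest of X (19 to 51) and 9.59 ± 6.22 in 132 bins of chromosomes II to V (1 to 55). The variance of the bins divided by their mean was 0.686 in the right segment, 2.10 in the rest of X and 4.03 on the autosomes. In replicate 1 these values were 1.60, 2.15 and 3.30, and in replicate 2 they were 0.640, 0.953 and 1.94. They are descriptions of few bins, and the differences between them were not tested.

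**Figure D3:**
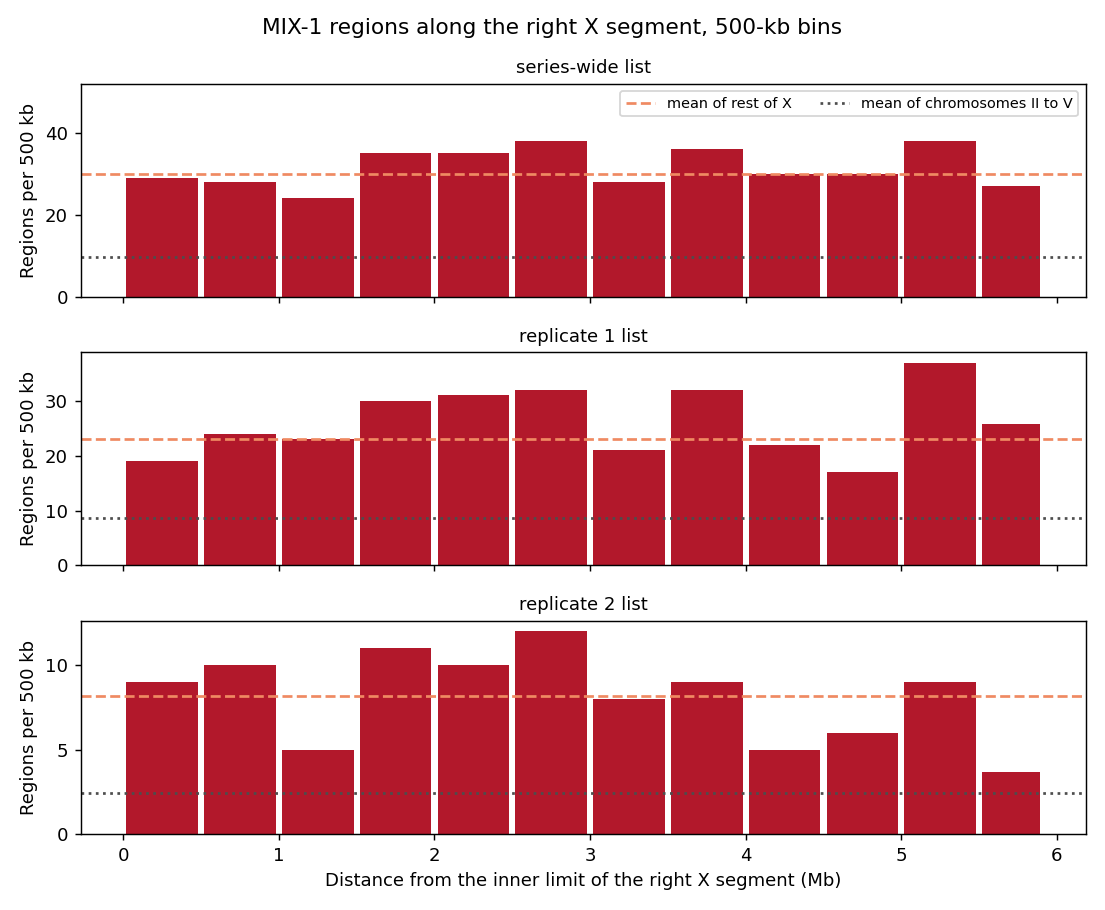
Regions per 500-kb bin along the right X segment in the series-wide and replicate lists, with the last bin of 406.7 kb scaled to 500 kb and lines for the mean bin of the rest of X and of chromosomes II to V. Series-wide counts of the 11 full bins run from 24 to 38, and each bin is above the autosomal mean of 9.59.

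Of the replicate 2 regions, 41 lay in the outer part and 56 in the inner part, a ratio that did not pass the test (0.732; exact 95% interval 0.477 to 1.12; exact binomial test, adjusted p = 0.542, with 0.383 to 1 over the alternatives of this comparison). Of the series-wide peaks, 19.3% of the outer part (13.9 to 25.6) and 28.0% of the inner part (21.6 to 35.0) were met by both replicate lists. This comparison was added after the data had been seen and did not pass its test (Fisher's exact test, p = 0.0517, adjusted over 9 added tests 0.107). In replicate 1 the outer part held 152 regions and the inner part 157.

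The number of peaks in a bin and its highest score did not always go together. The bins from 14.3 to 14.8 Mb and from 16.8 to 17.3 Mb had the most series-wide peaks, 38 each. The first held X:14525268-14526824 and 13 peaks met by both replicate lists. In the second the highest score was 32.8, the median was 5.63 and 7 peaks were met by both. Of the full bins, the one from 12.8 to 13.3 Mb had the fewest, 24, and no score above 44.5, and the last bin, of 406.7 kb, had 22.

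The longest stretches without a peak were set against the replicate lists. The longest measured 179.3 kb, between X:15860586-15860921, which scored 7.65, and X:16040205-16040553, which scored 10.5, and it held 1 region of replicate 1 and none of replicate 2. The next, of 119.9 kb, lay between X:13797091-13797367 and X:13917296-13917633 and held no region in either replicate. Another, of 113.1 kb between X:12730027-12730357 and X:12843459-12843786, held 1 region of replicate 1. The 6 peaks that border these stretches were met by replicate 1 and not by replicate 2, as were 169 of all 373 peaks of the segment (45.3%). These 6 are too few to be read as a trait of such borders.

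Peaks also lay in close groups. The median free distance between neighbours was 9.18 kb in the right X segment, against 10.2 kb in the rest of X and 27.1 kb on chromosomes II to V. Distances of at most 10 kb made up 52.4% of those in the right X segment, against 48.9% in the rest of X (Fisher's exact test, adjusted over 9 added tests p = 0.355) and 36.3% on the autosomes (adjusted p = 1.3e-07). Denser peaks have shorter distances by position alone, and no allowance was made for this. The contrast with the autosomes is therefore no separate sign of closer grouping in the right X segment. Distances of at most 1 kb made up 18.0%, against 13.5% in the rest of X (Fisher's exact test, adjusted p = 0.107) and 19.4% on the autosomes (adjusted p = 0.626). The share of immediate neighbours was thus not detectably different from that of the autosomes, where peaks were about 3 times less dense.

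The largest group, with steps of at most 10 kb, had 14 peaks in 16.7 kb at X:16928057-16944708. Its scores ran from 2.74 to 32.8, with 10 of the peaks met by replicate 1 and 4 by replicate 2. It held the wide peaks X:16931263-16933938 and X:16936840-16939002. A group of 9 peaks at X:16202070-16218501 included X:16209510-16210009. Groups of 8 at X:14504265-14528854 and of 7 at X:11934847-11948470 held the 2 strongest peaks of the stretch. Groups of the same sizes lay apart from strong peaks, with 8 peaks at X:12171734-12205709, where the highest score was 20.4, and 7 at X:17301868-17317335, where it was 13.4 and no peak was met by both replicate lists.

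Close neighbours were also counted around the strongest peaks. Of the 15 highest-scoring peaks, 10 had another series-wide peak within 1 kb, beside 95 of the other 358. For X:17543740-17544791 and X:17545349-17545909, both among the 15, that neighbour was the other one of the pair. X:12362502-12363749 was followed after 82 bp by X:12363832-12363995, a peak of 164 bp with a score of 3.74, and a single replicate 1 region at 3100 met both. In all, 64 members lay within 1 kb of a higher-scoring peak, with a median score of 5.26 and a median width of 237.5 bp. Of these, 71.9% were met by replicate 1 and 20.3% by replicate 2, beside 68.3% and 26.5% of the other 309. Whether such neighbours are separate sites or parts of one enriched region was not tested.

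Support by the replicate lists did not differ detectably between the right X segment and either the rest of X or chromosomes II to V. Chromosome I was left out of these and all other comparisons by stretch. Both lists met 88 of the 373 peaks, or 23.6% (exact 95% interval 19.4 to 28.2), against 23.3% of the rest of X and 20.6% of chromosomes II to V, with 22.3% over all nuclear peaks. The difference was 0.264 percentage points from the rest of X (Newcombe 95% interval -4.92 to 5.71; Fisher's exact test, adjusted p = 1) and 2.96 points from chromosomes II to V (-1.67 to 7.99; adjusted p = 0.405). Replicate 1 met 257 peaks, or 68.9%, beside 64.2% of all nuclear peaks. Replicate 2 met 95, or 25.5%, beside 25.6%. Neither list met 109 peaks, or 29.2%, beside 32.5%.

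Support followed the score, across lists that share their libraries. In the highest-scoring 25% of the nuclear list 64.4% of the right X peaks were met by both lists, against 68.3% in the rest of X and 59.3% on chromosomes II to V. In the lowest-scoring 25% the shares were 1.23%, 1.26% and 4.48%. The median series-wide score was 25.9 for the 88 peaks met by both lists, 7.61 for the 169 met only by replicate 1, 10.9 for the 7 met only by replicate 2 and 5.02 for the 109 met by neither. Of the 48 peaks in the highest-scoring 10% of the nuclear list, all were met by replicate 1 and 43 by both. Over nuclear peaks of any score these shares were 64.2% and 22.3%. The highest-scoring 10% of the other stretches was not counted in this way, so the counts are not read as particular to the right X segment.

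**Figure D4:**
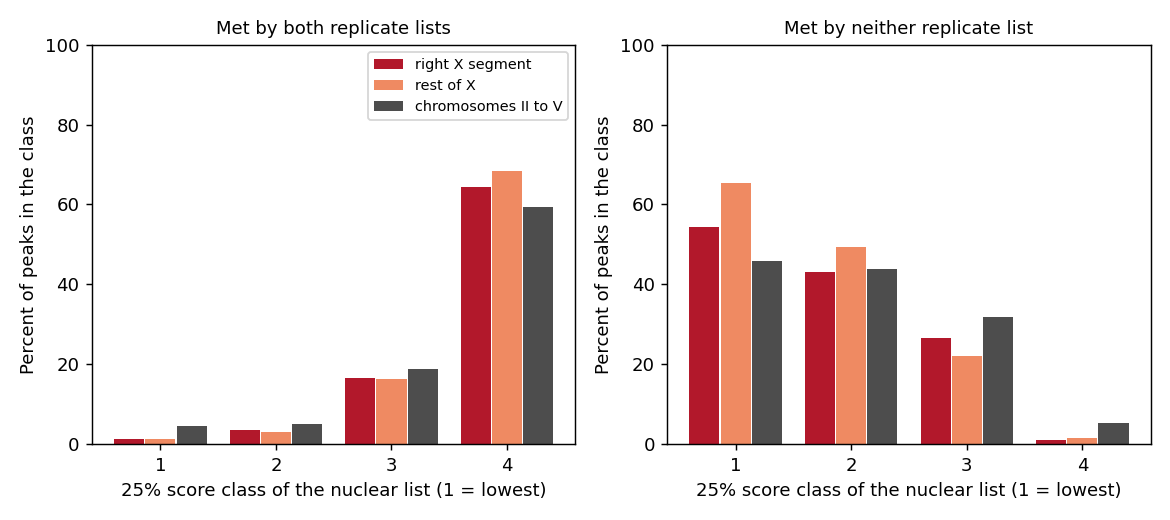
Percent of series-wide peaks met by both replicate lists (left) and by neither (right), by 25% class of the nuclear series-wide score, in the right X segment, the rest of X and chromosomes II to V. The share met by both reaches 64.4% of right X peaks in the highest class and is 1.23% in the lowest.

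The peaks met by neither replicate list were weak and narrow, at a median of 187 bp. The lowest scores in the lists of replicate 1 and replicate 2 were 50.03 and 50.09. A peak met by neither list may therefore still have had signal below those values. The highest-scoring of them, X:17718582-17718740 with 14.7, was also the peak nearest to the right end, 87.6 kb beyond its neighbour, and its last base set the span of X used here. Next were X:15281163-15281392 with 14.1, X:12860699-12860887 with 13.9, X:16683047-16683382 with 12.5 and X:15441282-15441606 with 12.0. X:16683047-16683382 lay 207 bp from X:16680923-16682839, one of the strongest peaks. All 5 scored below the median of the peaks met by both lists.

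In the opposite direction, every one of the 97 replicate 2 regions of the right X segment was met by a series-wide peak (exact 95% interval 96.3 to 100%), against 97.4% in the rest of X and 91.7% on chromosomes II to V. Of the 309 replicate 1 regions 85.1% were met (80.6 to 88.9), against 83.7% and 66.8%. Both shares were above those of chromosomes II to V (Fisher's exact test, adjusted over 9 added tests p = 0.00403 for replicate 2 and 6.2e-10 for replicate 1). Neither differed detectably from the rest of X (Fisher's exact test, adjusted p = 0.262 and 0.626). A denser list meets more regions by position alone, and no allowance was made for this.

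The 46 replicate 1 regions with no series-wide peak had a median score of 64.1. The highest, X:16758227-16761535, was 3309 bp wide with a score of 225.1 and lay 31.1 kb from the nearest series-wide peak. It was followed by X:12502553-12502840 with 153.1, X:17169586-17170215 with 122.5, X:15399922-15400674 with 107.4 and X:12276002-12276222 with 101.7. None of these 5 was met by replicate 2.

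Over the 88 peaks met by both lists, the replicate 1 score was the higher in 80 and equal in 1. Its median was 426.6, beside 133.4 in replicate 2. With the scale of the scores not stated and read depth unknown, this order cannot be read as stronger binding in replicate 1. The Spearman correlation of the replicate scores was 0.61 across these peaks, beside 0.65 across 164 peaks of the rest of X and 0.59 across 268 of chromosomes II to V. The series-wide score correlated with the replicate 1 score at 0.75 and with the replicate 2 score at 0.57. In the rest of X these correlations were 0.65 and 0.72, and on chromosomes II to V they were 0.31 and 0.41. The points share their libraries and a common list, and the values are descriptions.

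**Figure D5:**
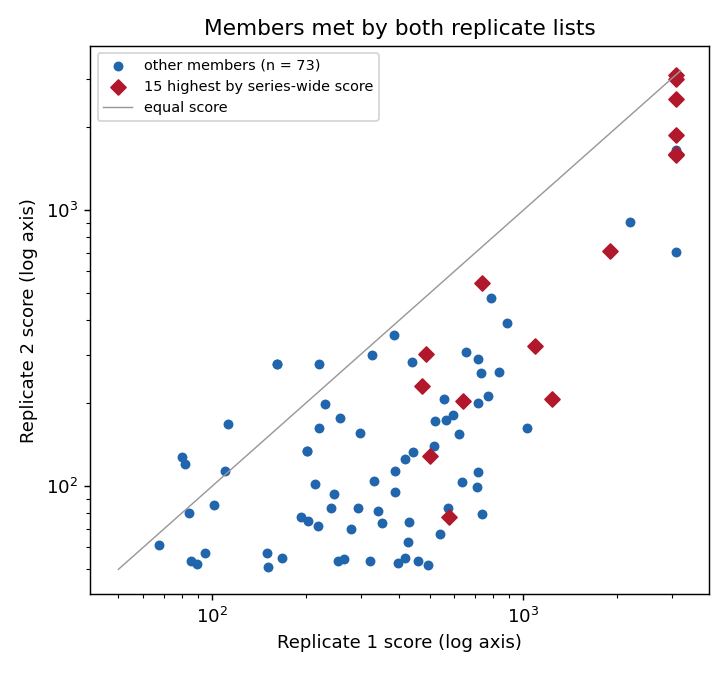
Replicate 2 score against replicate 1 score (both log axes) for the 88 peaks of the right X segment met by both replicate lists, with the 15 highest by series-wide score as diamonds and a line of equal score. Most points lie below the line, with the higher score in replicate 1 for 80 of 88, and the scores of replicate 1 end at 3100.

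In score, the right X segment did not differ detectably from the rest of X. The median series-wide score was 8.03 (exact order-statistic 95% interval 7.28 to 9.03), against 7.68 in the rest of X (7.28 to 8.42) and 6.85 on chromosomes II to V (6.47 to 7.28). The highest-scoring 10% of the nuclear list, which began at 26.9 and with ties took 10.1% of all nuclear peaks, held 12.9% of right X peaks, against 10.4% of the rest of X and 8.55% of chromosomes II to V. The difference from the rest of X was 2.48 points (-1.42 to 6.78; Fisher's exact test, adjusted p = 0.405). The difference from chromosomes II to V was 4.32 points (0.882 to 8.36; Fisher's exact test, adjusted p = 0.0478), a call that was lost under each of the 7 alternatives tried (adjusted p of 0.0587 to 1), and in the replicate lists the difference was 0.415 points (replicate 1, adjusted p = 0.829) and 2.25 points (replicate 2, adjusted p = 0.803).

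In median width, series-wide peaks of the right X segment exceeded those of the autosomes. They did not differ detectably from those of the rest of X. The median was 283 bp in the right segment (254 to 305), 283 bp in the rest of X (272 to 294) and 245 bp on chromosomes II to V (237 to 253). The mean widths in the same order were 373.0, 390.1 and 378.7 bp. Mean width was thus not above that of the autosomes. Peaks over 1 kb wide numbered 18 of 373, 27 of 703 and 68 of 1299. Of right X peaks 54.2% were wider than the nuclear median of 258 bp, against 57.2% in the rest of X and 45.0% on chromosomes II to V, with 49.8% over all nuclear peaks. The difference was -3.03 points from the rest of X (-9.25 to 3.18; Fisher's exact test, adjusted p = 0.471) and 9.12 points from chromosomes II to V (3.37 to 14.8; adjusted p = 0.00985). The autosomal difference was 6.64 points among replicate 1 regions (adjusted p = 0.142 by Fisher's exact test) and -6.59 points in replicate 2 (adjusted p = 0.567), so it did not pass the test in either library and changed sign in replicate 2. Over all alternatives of this comparison the adjusted p from Fisher's exact test ran from 3.2e-05, with calls within 1 kb merged, to 0.837, among peaks met by both lists.

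The peaks nearest to the inner limit that defined the segment had the following values. The first peaks inside were X:11872162-11872418, with a score of 4.09 and a width of 257 bp, and X:11886420-11888204, with 25.3 and 1785 bp. The last peaks outside were X:11797981-11798325, with 11.5 and 345 bp, and X:11788090-11789365, with 25.5 and 1276 bp. The stretch of 73.8 kb between the inner and the outer pair held no series-wide peak.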

How the data were processed

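Peak lists of 2 MIX-1 ChIP libraries and of the whole series were used. Per the submitters' processing notes, BWA was the aligner and ce10 the genome build. Regions were called with MACS (replicate lists) or MACS v2 (series-wide list) and placed on WormBase WS220, per the file headers and source column. Each deposited score is the authors' caller's value, of unstated scale. The sources used here state neither caller settings nor the control used nor how libraries were joined.

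The span of X was its highest region end over the 3 lists. Densities were compared by exact binomial tests and shares by Fisher's exact test, all two-sided, in Python 3.11.15 with scipy 1.17.1. The alternatives were the peaks above the median score, merging within 1 kb (within 10 kb added later), single replicate lists, peaks met by both, a 50% overlap, the highest-scoring 25% and a limit moved by 500 kb. Score limits and median widths were taken anew from each list so formed. P-values were adjusted by Benjamini-Hochberg over 9 tests, with 0.05 as threshold, and the functions were checked on simulated data. The members, tests and lists were chosen with earlier results of these data known. The peaks named were the 15 highest-scoring, the 5 widest others, the 5 highest met by neither list, those at the limit, the right end and the 3 longest gaps, and the 5 highest replicate regions without a series-wide peak; X:12363832-12363995 and the close groups were chosen after their values were seen.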

Additional observations from a re-analysis of the deposited data

How the results depend on the processing

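Of 66 recomputed values for the 9 tests, 40 kept their side of the threshold without a reversal of direction, 10 lost the call, 2 of these with a change of sign, and 16 changed sign without a call in either fit. Among the 40 was the ratio of the outer to the inner part with the limit 500 kb further right, which was exactly 1 and had no direction. The cause of the changes was not tested. The density ratio to chromosomes II to V passed under all 8 alternatives. The density ratio to the rest of X was 0.989 with calls within 10 kb merged and 0.990 to 1.13 in single replicate lists. The difference in share met by both replicate lists, against the rest of X, was -0.758 points among peaks above the median score, -0.00107 with calls within 1 kb merged, -0.669 with the limit 500 kb further right and -0.420 to 4.46 with 1 replicate list left out. The difference in the highest-scoring 10%, against the rest of X, was -1.88 points among peaks met by both lists and -0.957 to 1.66 in single replicate lists. Against chromosomes II to V it was 1.80 points among peaks above the median score, 5.17 for the highest-scoring 25%, -0.611 among peaks met by both, 4.05 and 4.25 with the limit 500 kb further left and right, and 0.415 to 2.25 in single replicate lists. The difference in share of wider peaks, against the rest of X, was 3.18 points among peaks above the median score, 0.275 with calls within 1 kb merged and 3.94 among peaks met by both. Against chromosomes II to V it was 5.66 points among peaks met by both and -6.59 to 6.64 in single replicate lists. The ratio of the outer to the inner part was 0.907 among peaks above the median score, 0.987 with calls within 1 kb merged, 0.692 among peaks met by both and 0.732 to 0.968 in single replicate lists. The p-values were adjusted over the tests run under each setting, which were fewer than 9 in some. Where a setting changed the list, the score limit of the highest-scoring 10% and the median width were taken from the changed list. They then replaced the 26.9 and 258 bp of the main tests, so these values are not of quite the same measure as the main ones. No paired analysis was possible because no list of the input libraries was used here. Read depth is unknown and limits every statement on the absence of a peak.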
